A study of Homo sapiens with 6 samples.

Results

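The ERBB family of SW620 cells was described in 6 libraries of poly(A) RNA, and its members were the rows of the deposited gene table that carry the symbols of the 4 receptors (EGFR, ERBB2, ERBB3 and ERBB4) and of 6 of their ligands (AREG, EREG, HBEGF, TGFA, BTC and EPGN), which makes 10 of 60605 genes. SW620 is an established human colorectal cancer line that came from a lymph node metastasis. Of the libraries, 3 came from cells infected with a pLVX-IRES-Puro lentivirus that carries ELAPOR1, an endosome and lysosome associated membrane protein, and 3 from cells infected with the empty vector. In both groups the virus was used at a multiplicity of 20, puromycin at 2 ug/ml selected the infected cells, and these were grown in medium with 10% serum, and the labels give no other treatment. Within a group the libraries are labelled 1 to 3, without word on separate infections or cultures or on single clones. A p-value here therefore reflects the variation among the 3 libraries of a group, and part of that variation can be technical. The edgeR fit also draws the variation of each gene toward the trend over all genes tested.

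ERBB receptors are tyrosine kinases of the cell surface that act as pairs. Their ligands are made as membrane-bound precursors, are released by ADAM proteases and bind on the outside of the cell, after which the paired receptors phosphorylate each other and recruit adaptors that feed the RAS to MAPK and the PI3-kinase to AKT cascades. EGFR binds EGF, AREG, TGFA and EPGN, and shares HBEGF, BTC and EREG with ERBB4. ERBB2 has no known ligand and is the preferred partner of the others, while ERBB3 binds neuregulins, has a weak kinase and docks PI3-kinase. In colorectal cancer, EGFR is the target of therapeutic antibodies, and AREG and EREG are studied as markers of the response to them.

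The 3 ELAPOR1 libraries held 16457436, 19268166 and 17984626 counts, and the 3 vector libraries held 19410332, 20571924 and 16401813. ELAPOR1 itself averaged 2277 ± 35.8 FPKM in ELAPOR1 cells and 1.14 ± 0.164 FPKM in vector cells (SD, n = 3 each), where FPKM is the count scaled to exonic length and to the total count of the library. The 9 markers of colorectal epithelium summed to between 1791 and 1817 FPKM in ELAPOR1 libraries and to between 1941 and 2034 FPKM in vector libraries, with CDX1 listed at 0 in 4 of the 6 libraries and not tested. Of the 8 tested, CDH17 rose by 1.05 on the log2 scale, KRT20 fell by 1.67, CDX2 fell by 0.56, KRT19 fell by 0.45 and KRT8 fell by 0.14. Fibroblast markers summed to between 8.33 and 10.3 FPKM in ELAPOR1 libraries and to between 5.69 and 6.30 FPKM in vector libraries, with COL1A2 at 0 in every library and most of the sum from LUM, which rose by 0.64 on the log2 scale. Immune markers summed to between 4.25 and 4.46 FPKM in ELAPOR1 libraries and to between 2.94 and 4.38 FPKM in vector libraries. Endothelial markers stayed between 0.22 and 0.32 FPKM in ELAPOR1 libraries and between 0.28 and 0.31 FPKM in vector libraries, with CDH5 at 0 throughout. The part of these marker differences in the results on the ERBB family was not tested.

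In ELAPOR1 cells EGFR, a low message in both groups, fell 2.16-fold. The receptors ERBB3 and ERBB2 and the ligand TGFA rose by 1.15-fold to 1.17-fold. HBEGF was higher by a similar size without passing the test. AREG, EREG and BTC did not pass it either, and ERBB4 and EPGN had almost no reads. The calls of ERBB2 and TGFA, unlike that of ERBB3, were lost in some fits that left out 1 library or used another tool. Of the 10 members 8 passed the filter on low counts, and of these 3 were higher and 1 was lower in ELAPOR1 cells, where over all 16003 genes tested 10.0% were higher, 11.4% were lower and 21.4% were called in either direction. The median log2 fold change of the 8 was 0.05, against 0.0041 for all genes tested. By other tools, DESeq2 called 3 of the 8 members, where it called 16.0% of all genes it tested, and limma on log2(FPKM + 1) called 1 of the 7 members it tested, where it called 14.3% of all genes.

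**Figure D1:**
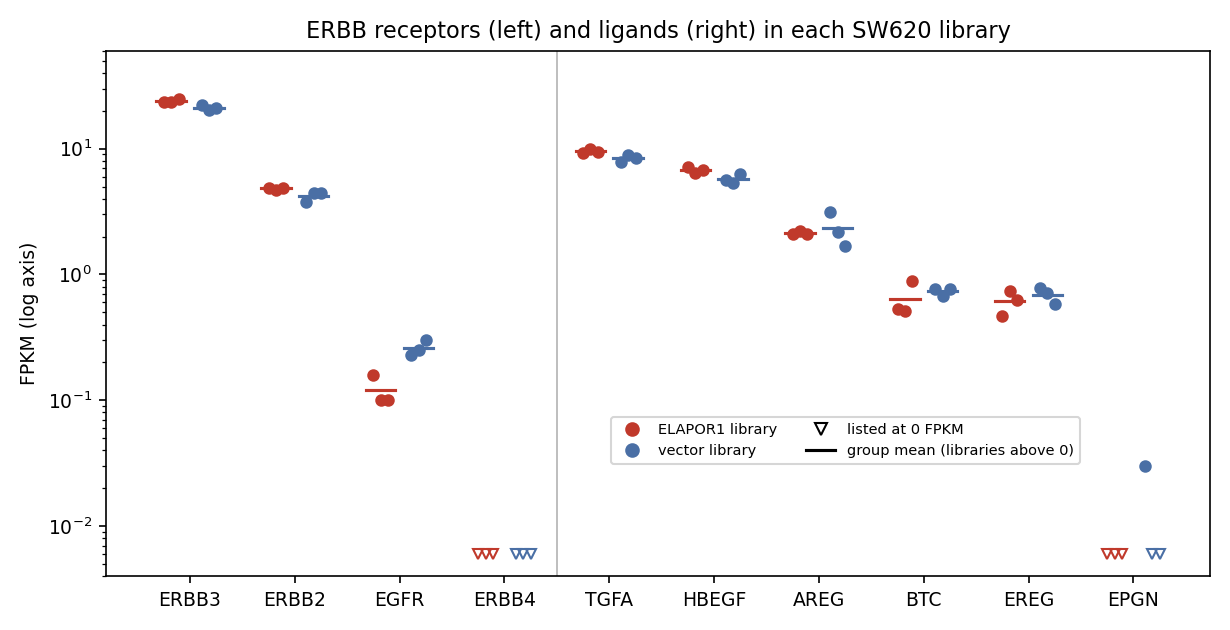
FPKM of each member in each library on a log axis, receptors left of the vertical line and ligands right of it, with ELAPOR1 libraries in red, vector libraries in blue and short lines at group means. ERBB3 lies between 20.4 and 24.8 FPKM and EGFR between 0.10 and 0.30 FPKM, and open triangles mark libraries listed at 0 for ERBB4 and EPGN.

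RefSeq promoter windows (GRCh38.p14, 250 bases before to 50 after a transcript start) were found for 9 of the 10 members, all but ERBB3. Those of EGFR, ERBB2 and TGFA are shown because these genes passed the test. EGFR and TGFA had 2 windows each, and the one nearer to the gene start is shown. The transcript start of the window is the gene start of the deposited table for EGFR and lies 180 bases from it for ERBB2 and 367 bases from it for TGFA. They run 5′ to 3′ on the strand of the gene. Capitals mark the GC box (GGGCGG, or CCGCCC on the other strand) and an ETS factor site (CCGGAAGT, or ACTTCCGG on the other strand); matches of the 2 motifs did not overlap in these windows. The windows are chr7:55018767-55019066 on the plus strand for EGFR, chr17:39687844-39688143 on the plus strand for ERBB2 and chr2:70553777-70554076 on the minus strand for TGFA.
EGFR: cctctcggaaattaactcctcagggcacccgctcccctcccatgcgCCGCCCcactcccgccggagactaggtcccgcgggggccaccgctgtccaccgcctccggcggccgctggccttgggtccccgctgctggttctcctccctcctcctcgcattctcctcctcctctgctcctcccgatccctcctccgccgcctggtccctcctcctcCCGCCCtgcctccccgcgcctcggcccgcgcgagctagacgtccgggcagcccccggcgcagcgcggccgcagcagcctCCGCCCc
ERBB2: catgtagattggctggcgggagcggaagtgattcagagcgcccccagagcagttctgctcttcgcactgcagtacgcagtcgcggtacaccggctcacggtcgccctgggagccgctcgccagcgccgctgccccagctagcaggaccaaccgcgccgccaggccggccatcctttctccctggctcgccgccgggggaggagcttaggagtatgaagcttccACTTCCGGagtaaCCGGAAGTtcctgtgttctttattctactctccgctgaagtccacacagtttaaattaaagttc
TGFA: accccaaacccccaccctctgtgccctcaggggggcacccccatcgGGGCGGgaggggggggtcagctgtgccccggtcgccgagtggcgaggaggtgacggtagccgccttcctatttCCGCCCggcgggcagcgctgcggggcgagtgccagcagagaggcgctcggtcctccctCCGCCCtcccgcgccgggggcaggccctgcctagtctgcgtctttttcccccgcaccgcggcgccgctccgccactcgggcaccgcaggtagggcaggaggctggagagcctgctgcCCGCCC

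The EGFR window, of the gene that fell, held 3 GC boxes, and the TGFA window, of a gene that rose, held 4, each with a GC content of 75.3% against a median of 58.7% over all 35116 windows. The ERBB2 window, the only 1 found for that gene, held no GC box and 2 ETS sites in opposite orientation. ERBB2 overlaps MIEN1 and PGAP3 on the other strand. Which gene or transcript start this window serves in these cells was not tested. A GC box occurred in 45.0% of all windows and the ETS site in 4.14%. HBEGF, which did not pass, held 5 GC boxes. The TATA box (TATAAA, or TTTATA on the other strand), found in 11.5% of all windows, occurred in the windows of AREG, EREG and EPGN and in none of the other 6. The cyclic AMP response element (TGACGTCA, the same on both strands), found in 1.85%, occurred once, in AREG. These matches describe the letters only.

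Among the receptors, EGFR (ENSG00000146648, GRCh38 chromosome 7, 55019017 to 55211628, plus strand) had 32, 24 and 22 reads in the ELAPOR1 libraries, against 55, 64 and 61 reads in the vector libraries. Scaled to library size, these were 1.97, 1.25 and 1.23 CPM in ELAPOR1 cells, against 2.81, 3.10 and 3.70 CPM in vector cells. The groups did not overlap, which held for 33.8% of all genes tested and for 5 of the 8 members tested. EGFR fell by 1.11 on the log2 scale (SE 0.292, 95% interval -1.69 to -0.53, edgeR adjusted p = 0.00280). The summed reads were 78 in ELAPOR1 cells (exact Poisson 95% interval 61.7 to 97.3) and 180 in vector cells (155 to 208), intervals that cover counting error only. In bulk RNA, fewer cells that express the gene and less RNA per cell cannot be told apart. EGFR stood at the 2.18th percentile of FPKM among tested genes in ELAPOR1 cells and at the 7.59th in vector cells. No read fell on its antisense gene EGFR-AS1.

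ERBB3 (ENSG00000065361, chromosome 12, 56076799 to 56103505, plus strand) was the most abundant member, with 23.5, 23.7 and 24.8 FPKM in ELAPOR1 libraries, against 22.04, 20.4 and 21.2 FPKM in vector libraries. The groups did not overlap, and each library held at least 4064 reads of the gene. ERBB3 rose by 0.20 on the log2 scale (SE 0.0345, edgeR adjusted p = 3.43e-06). In both groups it made up most of the receptor message, at 82.9% ± 0.542 of the summed receptor FPKM in ELAPOR1 cells and 82.6% ± 1.75 in vector cells (SD, n = 3 each).

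ERBB2 (ENSG00000141736, chromosome 17, 39687914 to 39730426, plus strand) had 4.90, 4.67 and 4.91 FPKM in ELAPOR1 libraries, against 3.78, 4.41 and 4.41 FPKM in vector libraries. Vector replicate 1 was the lowest library, and the other vector libraries lay just under the ELAPOR1 ones. ERBB2 rose by 0.22 on the log2 scale (SE 0.0652, edgeR adjusted p = 0.00787). Without vector replicate 1 the log2 fold change was 0.15, with an adjusted p of 0.122, so that this call rests on 1 library. The gene overlaps MIEN1 and PGAP3 on the other strand, and the sources used here do not state if strand entered the counting. MIEN1 had 3475 reads in all against 5111 for ERBB2 and fell by 0.23 on the log2 scale (adjusted p = 0.0275, between 0.0779 and 0.167 in the 4 fits without ELAPOR1 replicate 1 or 2 or vector replicate 2 or 3), and PGAP3, with 894 reads, had a log2 fold change of -0.11 (adjusted p = 0.660).

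ERBB4 (ENSG00000178568, chromosome 2, 211375717 to 212538841, minus strand), the receptor for neuregulins and for several of the EGF-like ligands, had 1 read in ELAPOR1 replicate 2 and 0 in the other 5 libraries. A count of 0 allows up to 3 reads, or between 0.0112 and 0.0141 FPKM per library at these depths. ERBB4 was therefore not detectable beyond that level, and it did not enter the test.

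The order of the receptor levels was the same in both groups, with ERBB3 above ERBB2, ERBB2 above EGFR and no overlap between neighbours in any library. ERBB3 was 4.98 ± 0.155 times as high as ERBB2 per length in ELAPOR1 cells and 5.08 ± 0.652 times in vector cells (SD, n = 3 each). ERBB2 was 42.1 ± 10.05 times as high as EGFR in ELAPOR1 cells and 16.3 ± 1.48 times in vector cells, and here the libraries of the groups did not overlap. EGFR thereby made up 0.560%, 0.351% and 0.335% of the summed receptor FPKM in ELAPOR1 libraries, against 0.883%, 0.998% and 1.16% in vector libraries. The sum itself, which is mostly ERBB3, was 29.0 ± 0.773 FPKM in ELAPOR1 cells and 25.7 ± 0.533 FPKM in vector cells.

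Among 37 receptor tyrosine kinase genes ranked by mean FPKM, ERBB3 came second in both groups, after MET. ERBB2 ranked 8 in both groups, and EGFR ranked 20 in ELAPOR1 cells and 18 in vector cells. Of the 33 kinases outside the family 19 passed the filter, and 6 rose and 1 fell, with a median log2 fold change of 0.15. Those called made up 36.8% of the 19, against 21.4% of all genes tested, in a list chosen with earlier results of these data known. MET, the 1 that fell, lost its call under 4 of 16 alternatives. INSR, the insulin receptor gene, rose and lost its call under 8 of 16. FGFR1, a fibroblast growth factor receptor, averaged 3.71 ± 0.217 FPKM in ELAPOR1 cells and 2.85 ± 0.129 FPKM in vector cells. IGF1R, the receptor for insulin-like growth factors, averaged 4.65 ± 0.362 FPKM in ELAPOR1 cells and 3.71 ± 0.170 FPKM in vector cells. AXL, the GAS6 receptor, rose by 0.36 on the log2 scale with an adjusted p of 0.0104, which became 0.154 without vector replicate 2, 0.0699 without ELAPOR1 replicate 1, 0.0666 with DESeq2 and 0.118 with limma on log2(FPKM + 1).

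**Figure D2:**
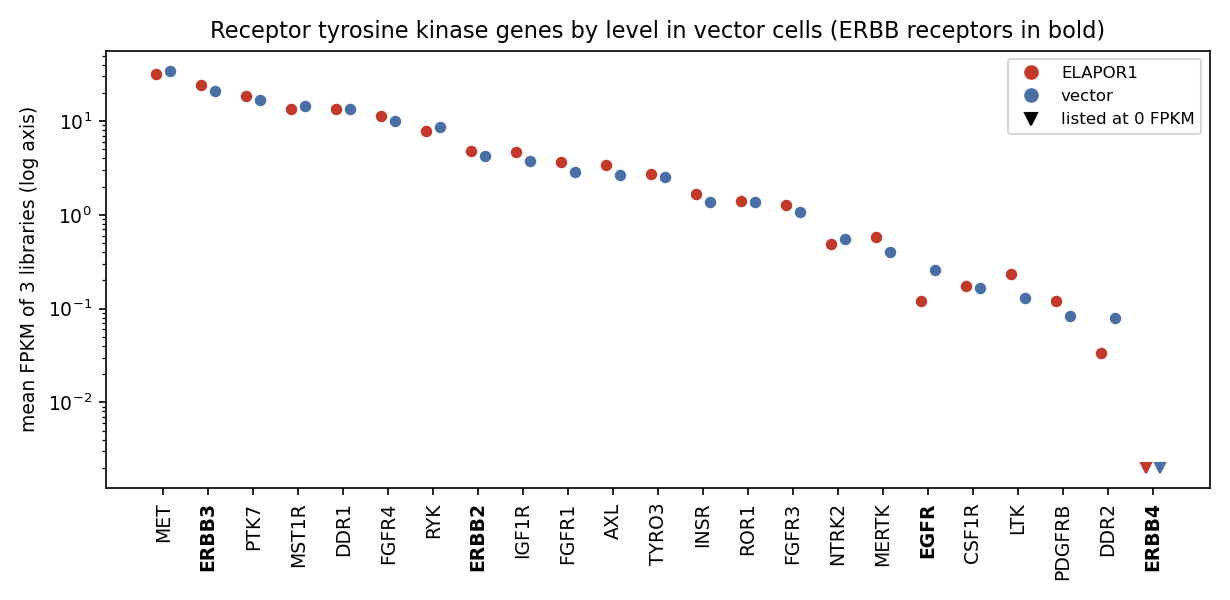
Mean FPKM of receptor tyrosine kinase genes on a log axis, ordered by level in vector cells, with ELAPOR1 means in red left of vector means in blue and ERBB receptors in bold; kinases outside the family with a vector mean of 0.05 FPKM or less are not drawn. ERBB3 is second after MET, EGFR sits at 0.12 FPKM in ELAPOR1 cells and 0.26 FPKM in vector cells, and ERBB4 is listed at 0.

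Among the ligands, TGFA (ENSG00000163235, chromosome 2, 70447284 to 70554193, minus strand), a ligand of EGFR, was the most abundant, with 9.27, 9.99 and 9.43 FPKM in ELAPOR1 libraries, against 7.83, 8.90 and 8.44 FPKM in vector libraries. The groups did not overlap, with ELAPOR1 replicate 2 the highest and vector replicate 1 the lowest. TGFA rose by 0.21 on the log2 scale (SE 0.0658, edgeR adjusted p = 0.0136). The adjusted p was 0.110 without vector replicate 1, 0.0912 without ELAPOR1 replicate 2 and 0.0619 with DESeq2 at its default dispersion trend. In the authors' deposited DESeq2 comparison it was 0.0154. The TGFA call thus depends on single libraries and on the tool and its settings.

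HBEGF (ENSG00000113070, chromosome 5, 140332843 to 140346603, minus strand), the heparin-binding ligand of EGFR and ERBB4, had 7.11, 6.40 and 6.77 FPKM in ELAPOR1 libraries, against 5.60, 5.38 and 6.30 FPKM in vector libraries. The groups did not overlap, and vector replicate 3 came close to ELAPOR1 replicate 2. The log2 fold change was 0.26 with a 95% interval of 0.06 to 0.45, and the adjusted p by edgeR was 0.0503, just outside the threshold. Leaving out 1 library gave adjusted p between 0.0304, without vector replicate 3, and 0.2003, without vector replicate 2, and DESeq2 gave 0.157.

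AREG (ENSG00000109321, chromosome 4, 74445136 to 74455005, plus strand), amphiregulin, had 2.11, 2.21 and 2.10 FPKM in ELAPOR1 libraries, against 3.14, 2.19 and 1.67 FPKM in vector libraries. The vector libraries surrounded the ELAPOR1 ones, and the spread among them exceeded the difference between groups. The log2 fold change was -0.11, with a 95% interval of -0.56 to 0.34 and an adjusted p of 0.800, and it was 0.16 without vector replicate 1. EREG (ENSG00000124882, chromosome 4, 74365145 to 74388749, plus strand), epiregulin, had 0.47, 0.74 and 0.63 FPKM in ELAPOR1 libraries, against 0.78, 0.71 and 0.58 FPKM in vector libraries. These overlapped as well, with a log2 fold change of -0.15, an interval of -0.59 to 0.29 and an adjusted p of 0.717.

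BTC (ENSG00000174808, chromosome 4, 74744759 to 74794523, minus strand), betacellulin, had 0.53, 0.51 and 0.88 FPKM in ELAPOR1 libraries, against 0.76, 0.68 and 0.76 FPKM in vector libraries. ELAPOR1 replicate 3 was the highest library and the other ELAPOR1 libraries the lowest, so the groups overlapped. The log2 fold change was -0.17, with an interval of -0.83 to 0.48 and an adjusted p of 0.786, which leaves room for a change in either direction at 23 to 42 reads per library. EPGN (ENSG00000182585, chromosome 4, 74308470 to 74316789, plus strand), epigen, had 2 reads in vector replicate 1 and 0 in the other 5 libraries, where a count of 0 allows up to between 0.0442 and 0.0554 FPKM.

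Ligand levels per length kept the order TGFA, HBEGF, AREG in every library of both groups. BTC and EREG came next and overlapped each other, and EPGN was last. TGFA made up 48.5% ± 1.58 of the summed ligand FPKM in ELAPOR1 cells and 46.8% ± 3.39 in vector cells, and HBEGF 34.3% ± 2.12 in ELAPOR1 cells and 32.2% ± 2.91 in vector cells (SD, n = 3 each). The sum was 19.7 ± 0.197 FPKM in ELAPOR1 cells and 17.9 ± 0.201 FPKM in vector cells, without overlap of the libraries.

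**Figure D3:**
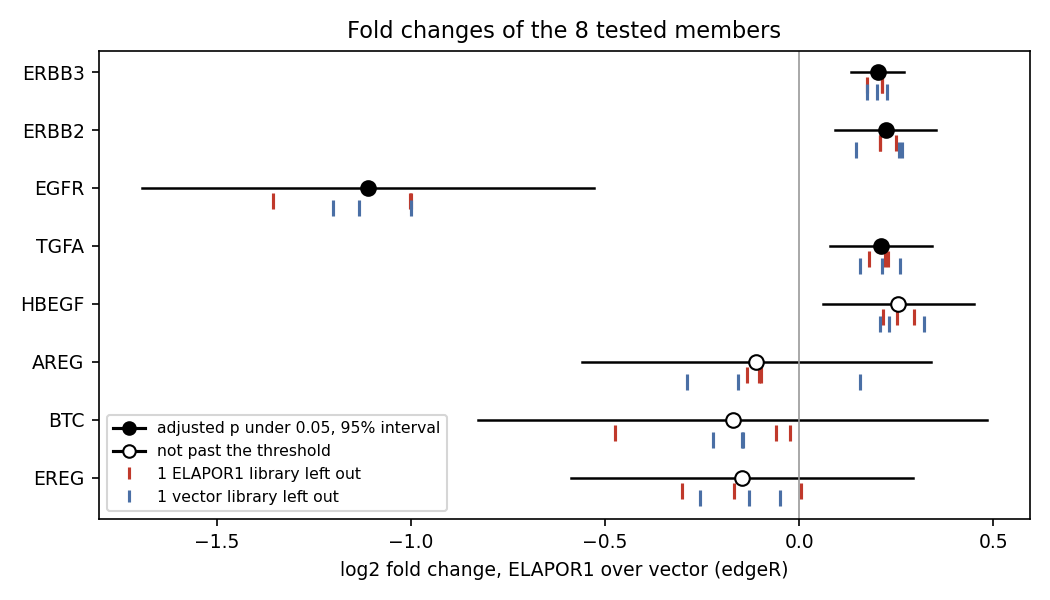
Log2 fold changes of the 8 tested members, ELAPOR1 over vector, with 95% intervals as horizontal lines, filled circles for an adjusted p under 0.05, and ticks for the value when 1 ELAPOR1 library (red) or 1 vector library (blue) was left out. EGFR stays between -1.36 and -0.999, ERBB3 stays between 0.18 and 0.23, and the intervals of AREG, BTC and EREG span 0.

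Other ligands of the family were scarce. EGF had 2 reads in ELAPOR1 replicate 3 and 0 elsewhere, and NRG1 had 0 reads in ELAPOR1 cells and 3 in vector cells. NRG2 had 18 reads in ELAPOR1 cells and 19 in vector cells, and NRG3 had 3 in ELAPOR1 cells and 0 in vector cells. Only NRG4, a ligand of ERBB4, passed the filter among these 5 genes, at 0.46, 0.40 and 0.63 FPKM in ELAPOR1 libraries, against 0.54, 0.38 and 0.26 FPKM in vector libraries. Its log2 fold change was 0.35 with an interval of -0.24 to 0.95 and an adjusted p of 0.458.

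The ligand genes EPGN, EREG, AREG and BTC lie together in 486 kb of chromosome 4 (74308470 to 74794523). Of 51 other genes within 1 Mb of this cluster 12 passed the filter. Of these 1 rose and 4 fell, with a median log2 fold change of -0.08. Over all genes tested 10.0% were higher, 11.4% were lower and 21.4% were called in either direction. The chemokine gene CXCL1 rose by 0.35 on the log2 scale, while CXCL8 fell by 0.71, RASSF6 fell by 0.24, USO1 fell by 0.21 and G3BP2 fell by 0.12. The adjusted p of CXCL1 was 0.0120 and became 0.157 without ELAPOR1 replicate 3 and 0.0769 without vector replicate 1. None of AREG, EREG and BTC passed in this setting or in any of the alternatives tried.

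By the distance between log2 CPM profiles centred on their mean over the 6 libraries, the named genes most like EGFR among the 14287 compared (mean CPM of 1 or more) were ADM, which encodes the peptide adrenomedullin, at 0.264, and TBX4, a T-box transcription factor gene, at 0.325. The third, at 0.391, was ENSG00000279692, which has no symbol in the deposited table, and the median distance was 1.47. ADM had 3.81, 2.66 and 2.69 CPM in ELAPOR1 libraries, against 5.11, 7.12 and 7.82 CPM in vector libraries. TBX4 had 2.34, 1.41 and 1.68 CPM in ELAPOR1 libraries, against 3.58, 3.10 and 4.49 CPM in vector libraries. These genes were picked for a profile like that of EGFR, so their difference between the groups follows from the choice and is given without a test.

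Of 13 genes that process the ligand precursors 12 were tested, 6 fell and 0 rose, and their median log2 fold change was -0.13, where 11.4% of all genes tested were lower. Of the 6, RHBDF1, CNIH1 and TMED2 lost the call with another tool or when 1 library was left out. Over the lists that follow, the share called in either direction was 37.5% for adaptors and 33.3% for inhibitors and ubiquitin enzymes. It was 23.8% for endocytosis, 29.2% for the cascade and 43.5% for MAPK output, against 21.4% of all genes tested. All these lists were chosen with earlier results of these data known, so the shares cannot show an excess. ADAM10, a protease that releases several of the ligands, fell by 0.19 on the log2 scale with an adjusted p of 0.000192. ADAM19, another protease of that family, had 48.5, 45.6 and 44.5 CPM in ELAPOR1 libraries, against 59.5, 58.6 and 59.7 CPM in vector libraries. TMED10, a cargo receptor between the endoplasmic reticulum and the Golgi, averaged 244 ± 4.29 CPM in ELAPOR1 cells and 298 ± 2.93 CPM in vector cells (SD, n = 3 each). RHBDF1, a rhomboid-like protein that escorts ADAM17, averaged 10.3 ± 1.01 CPM in ELAPOR1 cells and 13.2 ± 0.630 CPM in vector cells, with an adjusted p of 0.0193 that became 0.130 without ELAPOR1 replicate 2 and 0.0870 without vector replicate 2, and 0.0815 with DESeq2.

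Receptor inhibitors and ubiquitin enzymes went both ways, with 2 of 15 tested genes higher and 3 lower and a median log2 fold change of -0.04. ERRFI1, an intracellular protein that binds and inhibits the EGFR kinase, averaged 61.0 ± 1.97 CPM in ELAPOR1 cells and 98.3 ± 0.437 CPM in vector cells, and fell with an adjusted p of 4.53e-19. LRIG1, a membrane protein that lowers ERBB receptor levels, moved the other way, at 73.3 ± 2.53 CPM in ELAPOR1 cells and 44.1 ± 1.26 CPM in vector cells, with an adjusted p of 1.19e-17. SH3KBP1, a CBL partner in receptor uptake, fell by 0.20 on the log2 scale.

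Of 16 receptor adaptors and direct effectors 3 rose and 3 fell, with a median log2 fold change of 0.0051. GAB1, a docking protein that recruits PI3-kinase and SHP2, averaged 2.91 ± 0.294 CPM in ELAPOR1 cells and 0.603 ± 0.165 CPM in vector cells, a log2 fold change of 2.26. The related gene GAB2 fell by 0.31 on the log2 scale, and the kinase gene SRC rose by 0.31. In the endocytosis list 2 of 21 tested genes rose and 3 fell, with a median of -0.0052. The other 16 did not pass, while EPN2, an epsin, fell by 3.43, RIN2, an exchange factor for Rab5, fell by 2.11 and CLTB, a clathrin light chain, fell by 0.28 on the log2 scale. EPN1, another epsin, rose, but lost its call under 11 of 16 alternatives.

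Downstream, 1 of 24 genes of the RAS, MAPK and PI3-kinase cascade rose and 6 fell, with a median log2 fold change of -0.10. AKT1, a kinase downstream of PI3-kinase, fell by 0.16 on the log2 scale. MAP2K1, which encodes the kinase MEK1, averaged 75.7 ± 0.379 CPM in ELAPOR1 cells and 89.3 ± 0.464 CPM in vector cells. PIK3R3, a regulatory subunit of PI3-kinase, fell by 0.31, with an adjusted p of 0.0244 that was 0.0588 to 0.143 in the 4 fits without ELAPOR1 replicate 2 or 3 or vector replicate 1 or 3.

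Of 23 genes that report MAPK output 5 rose and 5 fell, with a median log2 fold change of 0.01. DUSP6, a phosphatase induced by and acting on ERK, averaged 90.9 ± 1.72 CPM in ELAPOR1 cells and 71.5 ± 3.79 CPM in vector cells, and DUSP5, its nuclear counterpart, moved the other way, at 4.95 ± 0.260 CPM in ELAPOR1 cells and 7.67 ± 0.815 CPM in vector cells. EPHA4, an ephrin receptor, rose by 0.43 on the log2 scale with an adjusted p of 0.0113, which became 0.0564 without vector replicate 2, 0.0557 with DESeq2 and 0.0992 with limma on log2(FPKM + 1). The ErbB signaling pathway is annotated in the deposited table for 114 named genes. Of these 80 were tested, 12 rose and 17 fell, and the median log2 fold change was -0.07. The share called in this list was 36.25%, against 21.4% of all genes tested. That list was chosen after results were seen and shares genes with the others.

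**Figure D4:**
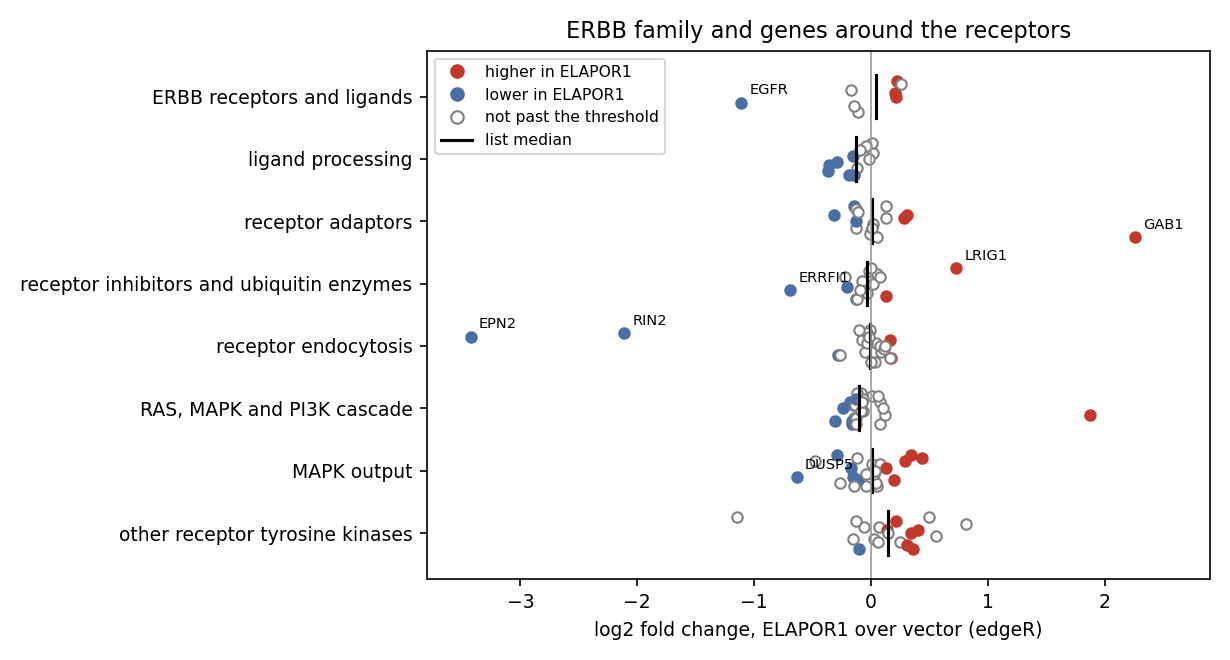
Log2 fold changes, ELAPOR1 over vector, of the tested genes of 8 lists, 1 circle a gene, red for higher and blue for lower at an adjusted p under 0.05, open circles for the rest and black lines at list medians; names mark some of the called genes with a change of at least 0.6. Most circles lie close to 0, with EPN2 and RIN2 far to the left and GAB1 far to the right.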

How the data were processed

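Per the submitters' processing notes, reads passed through cutadapt 1.9.1, HISAT2 2.0.1 and HTSeq 0.6.1, with DESeq2 and GRCh38 also named, and the deposited counts per gene are raw. The deposited FPKM were recomputed from count, exonic length and library total, and 142222 of 142222 values above a count of 0 matched to 0.01. The authors' deposited table also gives log2 fold changes, their p-values, a mean signal and a Wald score, of which only the fold changes and p-values are quoted. Columns headed K were read as the ELAPOR1 construct and those headed NC as the negative control. The counts went into edgeR 4.0.16 (R 4.3.3), with its expression filter, TMM scaling and a two-sided quasi-likelihood test, Benjamini-Hochberg adjustment over 16003 genes and a threshold of 0.05, and the steps were tested on simulated data. CPM values use TMM factors, and a standard error (SE) is the absolute log2 change divided by the root of the F statistic. Libraries of 1 group differed beyond sampling noise, with a mean chi-square per gene of 2.45 to 3.64, and each counted as 1 replicate. Alternatives used DESeq2 1.42.0, limma 3.58.1, other scalings and filters, a replicate block and libraries left out. The members and lists were chosen with earlier results of these data known. The text names all members, ELAPOR1, up to 3 called genes of each list by the rule of size and p, the 3 genes nearest to EGFR and called neighbours of the chromosome 4 cluster. ADAM10, CNIH1, TMED2, AKT1, EPN1, MET, INSR, the marker genes and the genes that overlap ERBB2 were added after their values were seen. Some genes the rule or the marker lists hold are not reported here.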

Additional observations from a re-analysis of the deposited data

How the results depend on the processing

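EGFR and ERBB3 kept their calls under every alternative that tested them except the limit of 2-fold change, which ERBB3 did not reach, EGFR at log2 fold changes between -1.36 and -0.999 and ERBB3 between 0.17 and 0.23. The limma fits on FPKM took only genes with at least 0.5 FPKM in 3 or more libraries. EGFR, between 0.10 and 0.30 FPKM in every library, was not tested there. The 4 called members became 1 with limma on log2(FPKM + 1) and 1 with log2(FPKM + 0.1), and 1, EGFR, under a limit of 2-fold change, where 2.26% of all genes were called. Leaving out 1 library gave 2 to 5 members, with 2 without vector replicate 1, log2 fold changes of 0.15 to 0.26 for ERBB2, 0.21 to 0.32 for HBEGF and 0.16 to 0.26 for TGFA, and 2723 to 3187 of all genes. With limma, ERBB2 stood at 0.17 and 0.20 (adjusted p of 0.138 and 0.136) and TGFA at 0.17 and 0.19 (0.0826 and 0.0835) with pseudocounts of 1 and 0.1, and with DESeq2 TGFA stood at 0.21 (0.0619). HBEGF passed with RLE factors at 0.26 (0.0488) and with at least 10 counts in every library of a group at 0.26 (0.0497). The count of 3427 genes was 2364 with DESeq2 (16.0% of those tested), 2133 (14.3%) and 2098 with limma at pseudocounts of 1 and 0.1, 2245 when the threshold was 0.01 and 361 under the 2-fold limit. The 46 called pathway genes became 30 with limma at a pseudocount of 0.1 and 4 under the 2-fold limit. Tighter limits lower a count by construction, and for limma the cause was not tested. Library sizes alone gave 1351 higher and 2183 lower genes, and limma at a pseudocount of 1 gave 727 higher and 1406 lower, against 1607 higher and 1820 lower with TMM scaling. Of the 46 pathway genes 25 kept their call under every alternative apart from the tighter thresholds, 21 lost it under at least 1 and 0 reversed. With the replicate block 3361 genes, 4 members and 45 pathway genes passed. EPN1 lost its call there at an adjusted p of 0.0531, and under 11 of 16 alternatives in all. Same-numbered libraries had correlations of -0.02, -0.03 and -0.02 between their deviations from the group means, and for 0 of 6 was that the highest, so the numbers were not treated as a pairing. EREG changed sign without ELAPOR1 replicate 1, at 0.0037, and AREG without vector replicate 1. The authors' deposited table gives -1.12 for EGFR, 0.22 for ERBB2, 0.20 for ERBB3, 0.21 for TGFA and 0.25 for HBEGF. Its adjusted p was 0.0154 for TGFA and 0.0642 for HBEGF. DESeq2 with a local dispersion trend, chosen after seeing the data, called 4 members. Among the members, depth limits EGFR, BTC and EREG, with reads per library as low as 22, 23 and 44.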
